A study of Mus musculus with 48 samples.

Results

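The 9 receptor genes described here were measured in sorted mouse enteroendocrine cells (EECs), the hormone cells of the gut epithelium. They are the muscarinic acetylcholine receptors *Chrm1*, *Chrm3* and *Chrm4*, the adrenergic receptors *Adra2a* and *Adrb1*, the cannabinoid receptor *Cnr1*, the angiotensin receptor *Agtr1a* and the vasopressin receptors *Avpr1a* and *Avpr1b*. They were taken by symbol, as 9 of the 53465 genes in a count table of 48 libraries from 17 mice, and 7 of the 9 passed the filter on low counts. *Adrb1* and *Avpr1a* did not pass it.

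The mice were lean males of the Neurod1-cre-eYFP strain, in which Cre driven by Neurod1 labels cells of the NeuroD1 lineage with a yellow fluorescent protein, and were about 20 weeks old at surgery. They underwent vertical sleeve gastrectomy (VSG), in which about 70% of the stomach was removed, or a sham operation followed either by *ad libitum* feeding or by food given so that body weight matched the VSG mice. All 3 groups had a liquid diet for 1 week after surgery and chow from then on, all received antibiotics and an analgesic, and the VSG mice were also injected with vitamin B12. Tissue was collected 6 weeks after surgery from mice fasted overnight and given 3 g/kg glucose by gavage some 15 min earlier. NeuroD1-positive cells were sorted from the top 5 cm of the small intestine (duodenum), its bottom 15 cm (ileum) and the colon with rectum, with 6 VSG libraries and 5 of each sham group in every region. Because the marker labels the whole lineage, each library is a mixture of EEC types, and a lower level in a library can come from fewer cells of a type or from less RNA per cell, which cannot be told apart. Libraries held 4648651 to 17182463 counts on genes.

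Acetylcholine from enteric and vagal nerves and noradrenaline from sympathetic nerves reach the epithelium close to EECs. M1 and M3 receptors (*Chrm1*, *Chrm3*) couple to Gq and raise intracellular calcium, which favours secretion, whereas the M4 receptor (*Chrm4*), the alpha-2A receptor (*Adra2a*) and the CB1 receptor (*Cnr1*) couple to Gi or Go, lower cyclic AMP and generally restrain it. The beta-1 receptor (*Adrb1*) couples to Gs and raises cyclic AMP, and the AT1 receptor (*Agtr1a*) and the V1a and V1b receptors (*Avpr1a*, *Avpr1b*) are again Gq-coupled.

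The labels of cell type and region were checked first. The summed level of 10 enteroendocrine markers had a median of 56830 CPM (counts scaled to library size) in duodenum, 44350 in ileum and 47170 in colon libraries. Its lowest value, 12190, was in 1 sham weight-matched duodenum library (mouse 27), whose 6 enterocyte markers summed to 35600 CPM against a regional median of 5393. *Chga* and *Chgb* made up most of the enteroendocrine sum, with medians of 17620 and 35140 CPM in the duodenum and 19910 and 26230 in the colon. From duodenum to colon the medians of *Neurod1* were 669, 385 and 244 CPM. Those of *Scg2* were 1102, 374 and 32.7 CPM. *Scg3*, *Pcsk1*, *Pax6*, *Isl1* and *Cpe* also had lower medians in the colon than in the duodenum, whereas *Chga* and *Insm1* had higher ones. Markers of the duodenum (3 genes, medians of 445, 71.1 and 2.29 CPM from duodenum to colon) and of the colon (4 genes, 5.32, 71.5 and 411 CPM) had separate ranges in the 3 regions. Those of the ileum (2 genes, *Fabp6* and *Slc10a2*) had medians of 2.545, 188 and 21.2 CPM. Their ranges in the ileum (39.4 to 1054 CPM) and the colon (7.57 to 44.6 CPM) overlapped. Enteric glia (4 genes), fibroblasts (4 genes) and smooth muscle with pericytes (6 genes) summed to at most 3.35, 5.21 and 14.7 CPM in any library. The 8 enteric neuron markers, which include *Ret*, a gene that EECs also express, summed to a median of 178, 112 and 95.9 CPM, and *Vip* had 0 counts in the ileum.

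The most abundant receptor on a length-corrected scale differed between regions. Expressed as CPM per kb of exon, which allows genes to be compared, *Cnr1* had the highest mean in the duodenum (14.9 ± 5.97, SD, n = 16), followed by *Chrm4* (11.2 ± 2.57) and *Adra2a* (2.78 ± 0.96). The first 2 of these overlapped within 1 SD. In the ileum *Chrm4* (7.02 ± 2.43), *Cnr1* (5.11 ± 2.46), *Adra2a* (4.28 ± 1.89) and *Chrm3* (3.57 ± 1.04) followed each other with overlapping SDs. In the colon *Adra2a* (7.35 ± 2.49) stood above *Avpr1b* (2.96 ± 1.48), *Chrm1* (2.25 ± 0.61) and *Agtr1a* (1.98 ± 1.49), and these last 3 overlapped. *Cnr1*, highest in the duodenum, was the lowest of the 9 in the colon (0.0707 ± 0.0764 CPM per kb). The annotated *Chrm4* model covers the coding exon only, so its length differs in kind from that of the others.

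**Figure D1:**
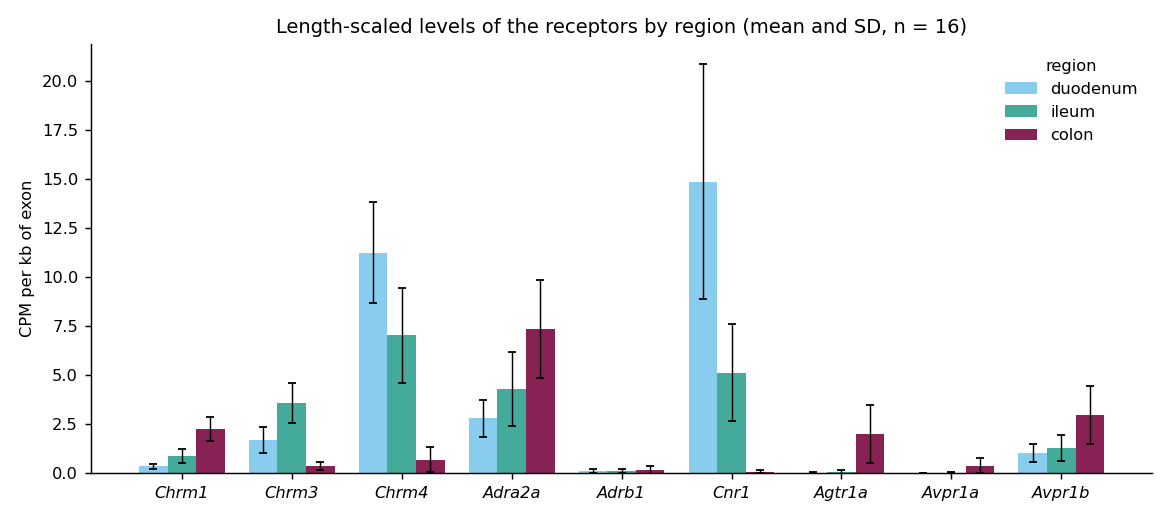
Mean length-corrected level (CPM per kb of exon, y axis) of the 9 receptors in the duodenum, ileum and colon, with the SD over 16 libraries as error bars. *Cnr1* and *Chrm4* are the tallest bars in the duodenum, and *Adra2a* is the tallest in the colon.

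The comparison between regions, averaged over the 3 surgical groups, asked where along the gut each receptor is transcribed. Between ileum and duodenum 5 of the 7 tested members differed, 3 higher and 2 lower in the ileum, where 17.2% and 16.6% of all 15126 tested genes were called higher and lower. Between colon and duodenum all 7 tested members differed, 4 higher and 3 lower in the colon, with 26.8% and 28.3% of all genes called in these directions. Between colon and ileum the 7 tested members again differed, with the same 4 higher and 3 lower in the colon, and 23.8% and 25.4% of all genes were called. The median log2 fold change of all tested genes was within 0.02 of 0 in each of the 3 comparisons.

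**Figure D2:**
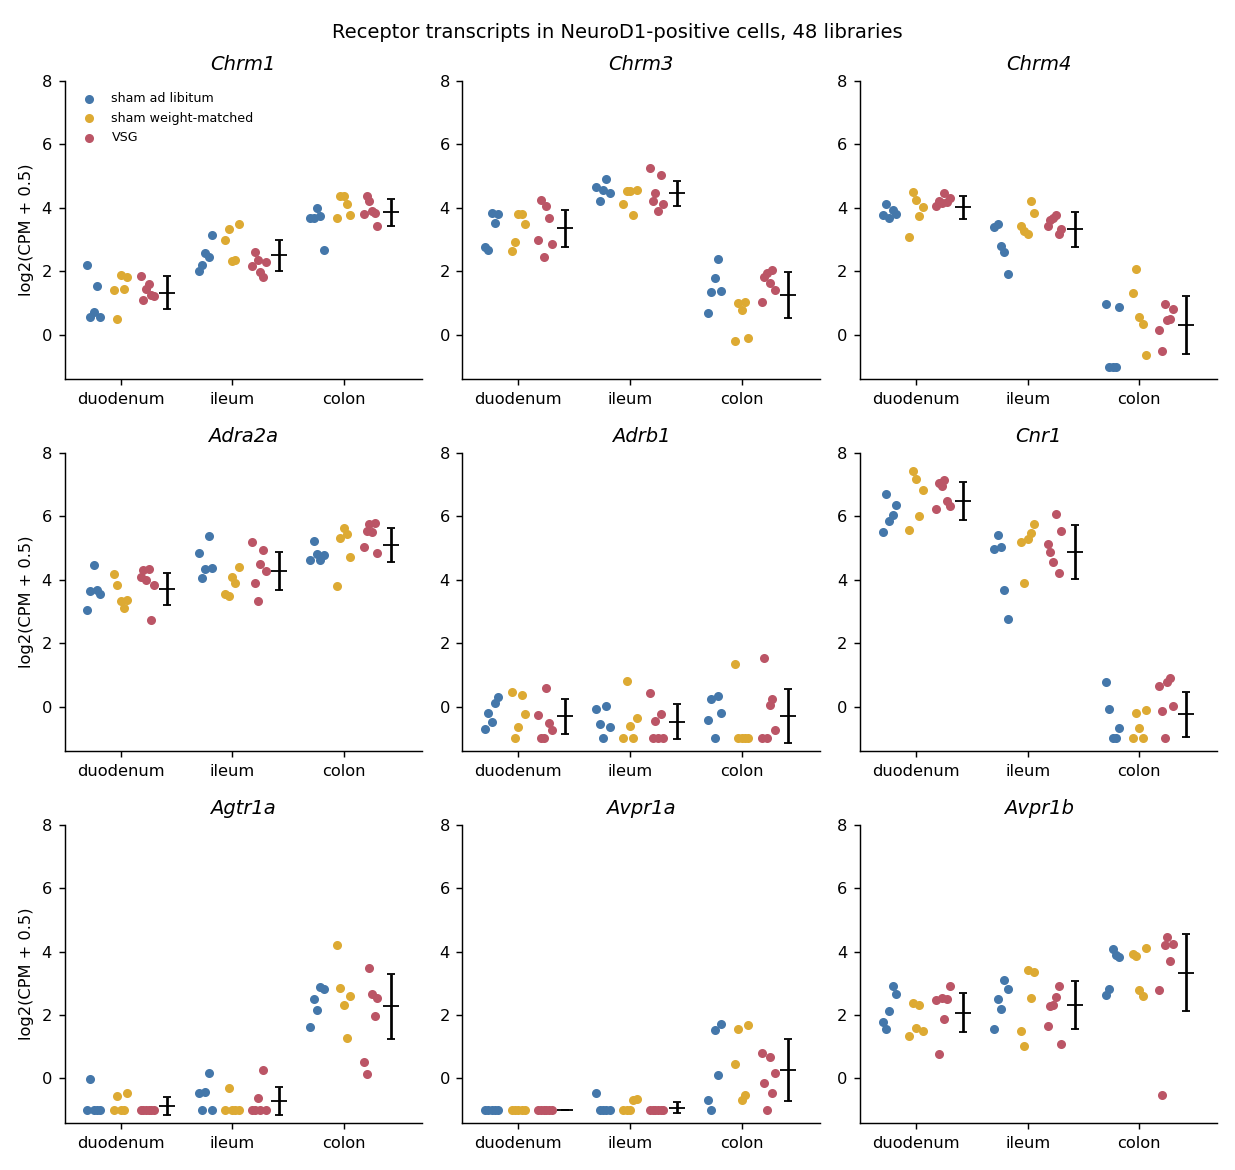
Level of each receptor, as log2(CPM + 0.5), in each of the 48 libraries by region, coloured by surgical group, with the mean and SD over the 16 libraries of a region in black. *Chrm1* and *Agtr1a* sit highest in the colon, *Cnr1* and *Chrm4* fall from duodenum to colon, and libraries at -1 hold no counts.

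Among the Gq-coupled muscarinic receptors, *Chrm1* rose from duodenum to colon and *Chrm3* peaked in the ileum. *Chrm1* (ENSMUSG00000032773, chr19:8663789-8683587, plus strand, GRCm38) ranged from 0.912 to 4.10 CPM in the duodenum with a median of 2.18, from 3.02 to 10.7 in the ileum with a median of 4.62, and from 5.88 to 20.5 in the colon with a median of 13.7. Every colon library was above every duodenum library. Its log2 fold change was 1.35 between ileum and duodenum (SE 0.19, adjusted p = 1.1e-07), 2.74 between colon and duodenum (SE 0.19, adjusted p = 1.12e-17) and 1.39 between colon and ileum (SE 0.18, adjusted p = 3.57e-09). The ileum value was the higher in 14 of 15 mice with both libraries, and the colon value exceeded the ileum value in 16 of 16. A noncoding RNA gene on the opposite strand, Gm22820, overlaps 5.1% of the *Chrm1* exons and was counted at 0.

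*Chrm3* (ENSMUSG00000046159, chr13:9875486-10360847, minus strand) had medians of 10.9 CPM in the duodenum (4.99 to 18.6), 22.3 in the ileum (13.1 to 37.5) and 2.06 in the colon (0.378 to 4.8). The colon did not overlap either small intestinal region, and every colon library held at least 3 counts. The ileum exceeded the duodenum by 1.08 on the log2 scale (SE 0.18, adjusted p = 4.3e-06), and the colon differed by -2.47 from the duodenum (SE 0.21, adjusted p = 3.7e-14) and by -3.55 from the ileum (SE 0.22, adjusted p = 2.63e-19). *Chrm1* and *Chrm3*, which share a G protein, moved in the same direction between duodenum and ileum and in opposite directions between ileum and colon. By summed counts the colon libraries held 1504 reads of *Chrm1* and 215 of *Chrm3*, against 291 and 1487 in the duodenum.

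*Chrm4*, the Gi-coupled member of the family (ENSMUSG00000040495, chr2:91927249-91928688, plus strand), fell along the gut. Duodenum libraries had a median of 16.5 CPM (7.95 to 22.3), ileum libraries one of 10.2 (3.24 to 18.2) and colon libraries one of 0.893 (0 to 3.72), and in the colon 3 of 16 libraries, all from sham *ad libitum* mice, held no counts. Against the duodenum the log2 difference was -0.70 for the ileum (SE 0.22, adjusted p = 0.00935) and -4.03 for the colon (SE 0.27, adjusted p = 4.21e-18), and between colon and ileum it was -3.33 (SE 0.27, adjusted p = 6.39e-15). The colon value was the lower in all 15 and 16 mice with paired libraries.

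Of the other muscarinic receptors, *Chrm2* was near the limit of detection, with 54 counts over the 16 duodenum libraries, 10 in the ileum and 8 in the colon, and *Chrm5* had 3, 10 and 2. Of the enzymes that remove acetylcholine, acetylcholinesterase (*Ache*) averaged 22.9, 23.2 and 12.1 CPM from duodenum to colon (colon against ileum, log2 -0.82, SE 0.18, adjusted p = 0.000184). Butyrylcholinesterase (*Bche*) averaged 73.6, 38.3 and 33.8 CPM (colon against duodenum, log2 -1.15, SE 0.16, adjusted p = 6.71e-08), and its colon and ileum levels did not differ by the test (log2 -0.20, SE 0.16, adjusted p = 0.319). The high-affinity choline transporter *Slc5a7*, which refills cholinergic terminals, was higher in the colon than in the duodenum (log2 3.33, SE 1.13, adjusted p = 0.0117), but its regional medians were all below 0.1 CPM and its highest library reached 43.7 CPM. In all, 3 of the 5 listed genes of acetylcholine handling were tested, and 1, 3 and 1 of them differed between ileum and duodenum, colon and duodenum, and colon and ileum, where 33.8%, 55% and 49.2% of all 15126 tested genes were called in either direction.

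*Adra2a*, the receptor through which noradrenaline restrains secretion (ENSMUSG00000033717, chr19:54044151-54048982, plus strand), rose from 12.9 CPM in the duodenum (median, 6.14 to 21.4) to 19.3 in the ileum (9.49 to 41.6) and 34.5 in the colon (13.4 to 54.9). The ranges of all 3 regions overlapped. Its log2 fold change was 0.60 between ileum and duodenum (SE 0.18, adjusted p = 0.00801), 1.38 between colon and duodenum (SE 0.18, adjusted p = 9.67e-09) and 0.77 between colon and ileum (SE 0.18, adjusted p = 0.000329). The order held in 12 of 15, 15 of 15 and 14 of 16 mice. *Adrb1* (ENSMUSG00000035283, chr19:56722199-56733113, plus strand) was scarce everywhere: its counts summed to 50, 31 and 49 over the 16 libraries of the duodenum, ileum and colon, with 0 in 3, 6 and 7 of them and at most 16 in one. The ratio of its pooled CPM was 1.28 between colon and duodenum (exact 95% counting interval 0.844 to 1.94) and 1.56 between colon and ileum (0.973 to 2.52), so a difference was not detectable at this depth. Such intervals cover counting error only.

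The alpha-1A receptor *Adra1a* averaged 0.338, 0.464 and 0.712 CPM and did not differ by the test in any region comparison (lowest adjusted p = 0.237). Tyrosine hydroxylase (*Th*), the rate-limiting enzyme of catecholamine synthesis, averaged 34.9 ± 10.8, 20.6 ± 7.97 and 0.40 ± 0.35 CPM in the same order, a log2 difference of -5.69 between colon and ileum (SE 0.29, adjusted p = 2.75e-21). The more abundant vesicular monoamine transporter, *Slc18a1*, averaged 328.5, 264.9 and 306 CPM from duodenum to colon. *Slc18a2*, a second such transporter with means of 37.1, 13.2 and 1.41 CPM, fell with *Th* (colon against ileum, log2 -3.20, SE 0.27, adjusted p = 8.84e-14). Monoamine oxidase A (*Maoa*), which degrades noradrenaline and serotonin, went the other way, with means of 159, 229 and 368 CPM (colon against duodenum, log2 1.30, SE 0.25, adjusted p = 1.82e-05). Of 10 listed genes of catecholamine handling 7 were tested, and 4, 4 and 5 differed in the 3 region comparisons (57.1%, 57.1% and 71.4%, beside 33.8%, 55% and 49.2% of all tested genes).

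*Cnr1* showed the steepest decline. It encodes CB1, the receptor for endocannabinoids (ENSMUSG00000044288, chr4:33924593-33948831, plus strand). Duodenum libraries ranged from 45.4 to 172 CPM with a median of 85.2, ileum libraries from 6.35 to 66.2 with a median of 33.3, and colon libraries from 0 to 1.37 with a median of 0.387. The colon ranges lay below those of both other regions, and 5 of 16 colon libraries had no counts. The 12477 counts of the duodenum stood against 50 in the colon, a ratio of pooled CPM of 191 (exact 95% counting interval 145 to 258). The ratio of ileum to colon was 65.8 (49.8 to 88.8). The fitted log2 difference was -1.54 for ileum against duodenum (SE 0.23, adjusted p = 6.68e-07), -7.87 for colon against duodenum (SE 0.36, adjusted p = 3.51e-22) and -6.32 for colon against ileum (SE 0.37, adjusted p = 1.36e-18).

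*Cnr1* and *Chrm4* moved together, and over the 48 libraries their log2(CPM + 0.5) values had a Pearson r of 0.941, which fell to 0.416 once the 9 group means were removed. The libraries share mice, and much of the first value is the difference between regions. To show what lies at the start of the 2 genes, their promoters are given from 250 bases before to 50 after the RefSeq start site (GRCm38.p6), with matches to the motifs searched in capitals. The *Cnr1* window (chr4:33924394-33924693, plus strand, 69.0% GC) holds the letters CATAAA at position -29, the reverse complement of the CDX motif TTTATG. The *Chrm4* window (chr2:91921939-91922238, plus strand, 70.7% GC) starts from a site 5060 bases upstream of the annotated coding exon and holds the GC box GGGCGG, in either orientation, at positions -215, -92, -88 and 32, the middle pair overlapping.
Cnr1: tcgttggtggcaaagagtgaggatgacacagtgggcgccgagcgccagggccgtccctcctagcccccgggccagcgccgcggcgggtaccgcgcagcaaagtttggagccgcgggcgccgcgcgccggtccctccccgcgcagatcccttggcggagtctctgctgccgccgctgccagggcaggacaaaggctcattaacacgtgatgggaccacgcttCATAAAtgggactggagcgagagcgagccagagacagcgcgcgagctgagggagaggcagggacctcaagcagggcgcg
Chrm4: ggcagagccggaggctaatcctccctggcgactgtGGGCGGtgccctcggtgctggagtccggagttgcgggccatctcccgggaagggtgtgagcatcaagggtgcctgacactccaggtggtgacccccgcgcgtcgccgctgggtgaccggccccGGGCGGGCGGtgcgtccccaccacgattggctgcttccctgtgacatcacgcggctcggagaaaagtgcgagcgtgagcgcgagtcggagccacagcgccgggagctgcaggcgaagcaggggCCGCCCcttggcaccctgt
The motifs were searched on both strands of the 6 member promoters at hand (*Chrm3*, *Chrm4*, *Adra2a*, *Adrb1*, *Cnr1* and *Avpr1a*). TTTATG is present in 11.9% of 32851 promoters of the same length and GGGCGG in 35.7%. *Adra2a* holds TATAAA at -29 and a GC box at -102, *Adrb1* a GC box at -202 and *Avpr1a* TATAAA at -137, against 13.6% of all promoters for TATAAA. The NeuroD1 E-box CAGATG (17.2% of promoters) and the GATA motif AGATAA (11.2%) were not found in any of the 6 windows, and *Chrm3* had none of the 5 motifs. *Cnr1* and *Chrm4* held 33 and 30 CpG sites, and *Adra2a* and *Adrb1* held 28 each. *Avpr1a* and *Chrm3* held 13 and 11, and the median promoter held 7.

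Other receptors for lipid messengers followed different courses. *Gpr55* (13.7 ± 4.03, 11.2 ± 3.77 and 1.06 ± 1.29 CPM from duodenum to colon) was also lower in the colon than the ileum (log2 -3.50, SE 0.28, adjusted p = 6.44e-15). *Gpr119*, a receptor for oleoylethanolamide, differed by -0.94 between them (SE 0.23, adjusted p = 0.000654), with means of 13.5, 18.9 and 9.63 CPM. *Cnr2* held 15, 6 and 3 counts per region. The degrading enzyme *Faah* averaged 81.9, 73.5 and 42.9 CPM with a log2 difference of -0.78 between colon and ileum (SE 0.08, adjusted p = 4.02e-11). *Cnrip1*, whose product binds CB1, was scarce but went against its partner, from 0.126 to 0.823 and 1.67 CPM (colon against duodenum, log2 3.91, SE 0.47, adjusted p = 5.29e-10). Of the 10 listed endocannabinoid enzymes and CB1 partners, all tested, 4, 7 and 6 differed in the 3 region comparisons (40%, 70% and 60%, beside 33.8%, 55% and 49.2% of all tested genes).

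*Agtr1a*, the AT1 angiotensin receptor (ENSMUSG00000049115, chr13:30336441-30382867, plus strand), was a transcript of the colon. Colon libraries held between 0.601 and 17.8 CPM with a median of 5.26, and none was at 0. In the duodenum 13 of 16 libraries and in the ileum 10 of 16 had no counts, and the highest values there were 0.494 and 0.698 CPM. The 602 counts in the colon stood against 7 in the duodenum, a ratio of pooled CPM of 112 (exact 95% counting interval 54.1 to 280), and 17 in the ileum, a ratio of 34.9 (21.6 to 60.2). The colon value was the higher in 15 of 15 mice against the duodenum (adjusted p = 1.03e-12) and in 16 of 16 against the ileum (adjusted p = 9.87e-11). Ileum and duodenum did not differ by the test (log2 1.48, 95% interval -0.03 to 2.99, adjusted p = 0.127), although without sham *ad libitum* mouse 32, whose duodenum library held 4 of the 7 counts, the value was 2.36 (adjusted p = 0.0304).

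The paralogue *Agtr1b*, which mice carry beside *Agtr1a*, had 1 count in all 48 libraries, and 1.27% of the 50-base stretches of *Agtr1a* also occur in another gene. *Agtr2* had 0, 3 and 13 counts from duodenum to colon, and *Mas1* 19, 2 and 25. Markers of smooth muscle and pericytes, cells that carry AT1 receptors in vessel walls, summed to medians of 1.85, 5.42 and 6.89 CPM from duodenum to colon. Most of this was *Pdgfrb* (medians of 1, 4.02 and 5.9 CPM). *Acta2*, *Myh11*, *Actg2*, *Des* and *Rgs5* each had a median below 1 CPM in every region. The part of such cells in the *Agtr1a* level was not tested. After removal of group means r with *Agtr1a* over 48 libraries was 0.244 for the smooth muscle and pericyte markers, 0.253 for fibroblast, 0.282 for enteric neuron and 0.391 for 4 endothelial markers. The endothelial markers, mostly *Pecam1*, summed to medians of 17, 27.5 and 31.4 CPM, and *Cdh5*, which defines endothelium, had a median of 0 in every region. Angiotensinogen (*Agt*), the precursor of angiotensin, rose with *Agtr1a*, from 4.04 to 6.91 and 9.57 CPM (colon against duodenum, log2 1.23, SE 0.20, adjusted p = 7.85e-07). Of the peptidases that process angiotensins, *Ace* (log2 -3.23, SE 0.32, adjusted p = 1.63e-11) and *Enpep* (-5.76, SE 0.37, adjusted p = 9.9e-17) were lower in colon than in ileum libraries. Both are brush-border enzymes of enterocytes, whose 6 markers summed to medians of 5393, 6975 and 396 CPM, and the part of such cells in these differences was not tested. Of 10 listed genes of vasopressin and renin-angiotensin biology 7 were tested, and 4, 6 and 5 differed by region (57.1%, 85.7% and 71.4%, beside 33.8%, 55% and 49.2% of all tested genes).

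Both vasopressin receptors were highest in the colon. *Avpr1b* (ENSMUSG00000026432, chr1:131599239-131612000, plus strand) ranged from 1.20 to 7.0 CPM in the duodenum (median 4.17), from 1.54 to 10.1 in the ileum (median 4.83) and from 0.20 to 21.3 in the colon (median 14.0). It was higher in the colon by 1.57 on the log2 scale against the duodenum (SE 0.30, adjusted p = 1.33e-05) and by 1.21 against the ileum (SE 0.29, adjusted p = 0.000556), in 14 of 15 and 12 of 16 mice. Between ileum and duodenum the log2 difference was 0.36 (95% interval -0.25 to 0.96, adjusted p = 0.389). One VSG colon library (mouse 30) held 1 count of *Avpr1b*, 0.20 CPM, whereas the other VSG colon libraries held 6.46 to 21.3 CPM, and the same library had the lowest colon value of *Agtr1a*.

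*Avpr1a* (ENSMUSG00000020123, chr10:122448499-122453452, plus strand) had no count in any of the 16 duodenum libraries, which allows at most 0.0217 CPM (3 counts over the group), and 3 counts in all in the ileum. The colon held 112 counts, from 0 to 2.81 CPM with a median of 0.60, and 14 of 16 libraries had at least 1. Its pooled colon level was at least 48.7-fold higher than in the duodenum, and 36.8 times that of the ileum (exact 95% counting interval 12.3 to 181). In an edgeR fit without the filter on low counts, *Avpr1a* in colon and ileum differed (adjusted p = 7.18e-07). Of their relatives, *Avpr2* had 14, 17 and 16 counts from duodenum to colon, and the oxytocin receptor *Oxtr* went the other way, with means of 2.04, 0.840 and 0.570 CPM (colon against duodenum, log2 -1.78, SE 0.40, adjusted p = 0.000155). Over all libraries the gene most like *Avpr1b* was *Agtr1a* (r = 0.661 over 48 libraries, and 0.521 after removal of the group means).

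**Figure D3:**
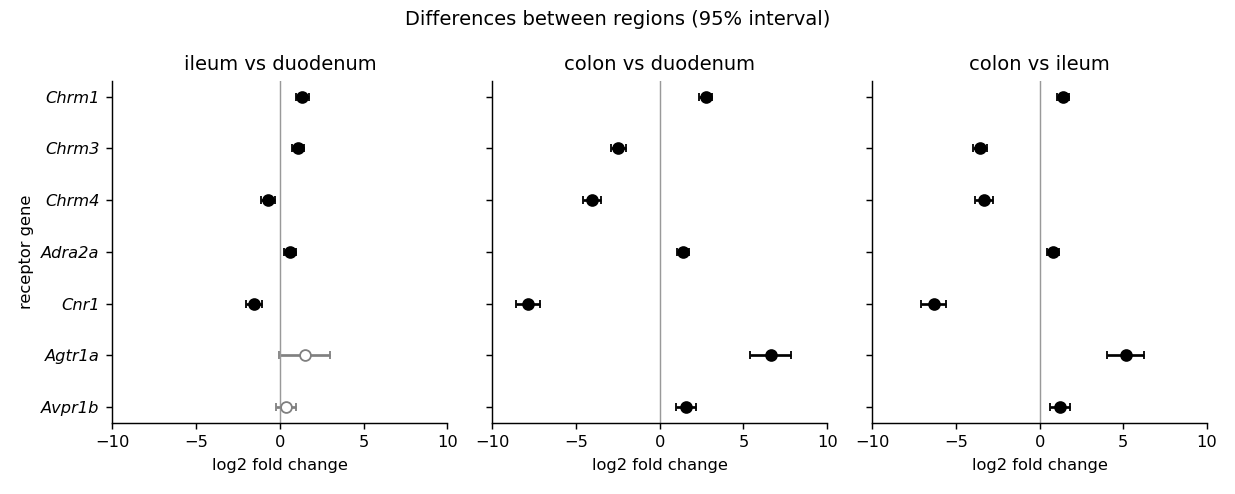
Log2 fold change (x axis) of the 7 tested receptors between regions, averaged over the surgical groups, with 95% intervals. Filled points passed the adjusted threshold. *Cnr1* lies furthest to the left and *Agtr1a* furthest to the right in both comparisons with the colon.

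The sequencing index was not balanced over regions or, in the duodenum, over surgical groups. The i5 index, 1 of the 2 barcodes of a library, took 4 values, of which one was carried by 12 of the 16 duodenum libraries and by no other region, and another by 11 of the 16 colon libraries and 1 ileum library. Every VSG duodenum library carried the first of these values. The duodenum libraries of sham *ad libitum* mice 12, 13 and 32 and sham weight-matched mouse 27 did not. Surgery contrasts in the duodenum are therefore partly confounded with the index. With the index as a covariate, 2 members in place of 5 differed between ileum and duodenum. Index and region are largely confounded, and the share of all tested genes called with this covariate is not given here. The loss of calls can therefore not be read as particular to the members. *Chrm4* (log2 -0.20, adjusted p = 0.838), *Adra2a* (0.05, adjusted p = 0.955) and *Cnr1* (-1.16, adjusted p = 0.0669) were no longer called. *Adra2a* and *Avpr1b* were also no longer called between colon and duodenum (0.64 and 0.98, adjusted p = 0.25 and 0.251) or between colon and ileum (0.59 and 0.46, adjusted p = 0.0543 and 0.338).

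Within the index shared by 7 ileum and 4 duodenum libraries, the ileum minus duodenum difference in mean log2(CPM + 0.5) was 1.30 for *Chrm1*, 1.51 for *Chrm3* and -1.05 for *Cnr1*, with exact permutation p = 0.0182, 0.00606 and 0.00606. It was -0.19 for *Chrm4* and 0.22 for *Adra2a* (exact p = 0.321 and 0.642). One of the 4 duodenum libraries was that of mouse 27, without which the *Chrm4* difference was -0.38 (exact p = 0.0333). Within the index shared by 4 colon and 8 ileum libraries, the colon minus ileum difference was 1.49 for *Chrm1*, -3.43 for *Chrm3*, -3.37 for *Chrm4* and -5.27 for *Cnr1* (exact permutation p = 0.00404 each, the smallest this design allows). *Agtr1a* differed by 2.46 (exact p = 0.0121) and *Avpr1a* by 0.94 (exact p = 0.0364). *Adrb1* differed by 1.17 (exact p = 0.0525, and 0.0121 without the colon library of mouse 11). *Adra2a* differed by 0.41 (exact p = 0.271), and *Avpr1b* by -0.39 (exact p = 0.622). The 4 colon libraries include that of mouse 30 with its 1 count of *Avpr1b*, without which the difference was 0.54 (exact p = 0.303). In a check added after the data were seen, each library of the smaller region was left out in turn. The exact p of *Chrm1* between ileum and duodenum was then 0.05 without the duodenum library of mouse 13, 27 or 32, that of *Avpr1a* was 0.109 without the colon library of mouse 11, 30 or 31, and that of *Adra2a* between colon and ileum was 0.0485 without the colon library of mouse 31 (difference 0.78). Of the mice behind these libraries, 1 gave both an ileum and a duodenum library to the first index and 3 gave both a colon and an ileum library to the second, and the exact test treats such libraries as independent. The exact test also takes no account of surgical group. The first index held VSG libraries in the ileum (mice 18, 22 and 25) but none in the duodenum. Its ileum minus duodenum differences therefore mix region with surgical group. No index held at least 2 libraries each of colon and duodenum. These p-values are not adjusted over the 9 genes.

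Genes with the most similar pattern were sought among those tested with a mean count of at least 10, by Pearson r of log2(CPM + 0.5) over the 48 libraries, as a description. *Cnr1* lay closest to *Gip*, *Th* and *Sphkap* (r of 0.973 to 0.976), and *Chrm4* to *Th*, *Scg2* and *Cnr1* (0.949, 0.941 and 0.941). *Chrm1* was followed by *Mboat1*, *Cables1* and *Gsdmc2* (0.915, 0.914 and 0.911), and *Chrm3* by *Lama4*, *Mmp7* and *Pitx1* (0.910, 0.905 and 0.899). *Adra2a* was followed by *Ybx3*, *Pla2g4a* and *Pdha1* (0.879, 0.864 and 0.863), *Agtr1a* by *Negr1*, *Hmgcll1* and *Stra6* (0.924, 0.920 and 0.920), and *Avpr1b*, after *Agtr1a*, by *Fgfbp3* and *Ncam1* (0.659 and 0.651). With the group means removed, the closest genes were *Tcirg1* for *Chrm1* (0.649), *Acly* for *Chrm3* (0.646), *Sfrp5*, *Tril* and *Gxylt2* for *Chrm4* (0.651, 0.642 and 0.612), *Slc12a2*, *Ybx3* and *Myb* for *Adra2a* (0.767, 0.766 and 0.748), *Scarb1*, Gm32255 and *Fstl4* for *Cnr1* (0.664, 0.632 and 0.618) and *Kansl1* for *Avpr1b* (0.651). No gene reached 0.6 for *Agtr1a*.

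*Mmp7*, close to *Chrm3*, is a Paneth cell gene, and the 4 Paneth markers summed to medians of 208, 1836 and 15.1 CPM from duodenum to colon. Their summed level had r = 0.859 with *Chrm3* over the 48 libraries and -0.055 after removal of the group means. For *Chrm1* the 4 colonocyte markers (medians of 89.6, 109 and 1192 CPM) gave 0.844 and 0.418, and the 4 goblet markers (3355, 3489 and 8153 CPM) gave 0.634 and 0.365. For *Adra2a* the 10 enteroendocrine markers gave -0.261 and -0.446, and the 4 tuft cell markers (9.52, 17.2 and 29.4 CPM) gave 0.690 and 0.465. The enterocyte markers gave 0.791 and -0.433 for *Chrm3*, and the enteric neuron markers gave 0.586 and 0.471 for *Chrm4* and -0.681 and -0.424 for *Adra2a*. For *Chrm4* the enteric glia markers, with medians of 1.3, 0.392 and 1.02 CPM, gave 0.092 and 0.472. The part of these cells in the receptor levels was not tested, and only some of the marker lists are given for each member.

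Among the G proteins and regulators through which the receptors act, calls between regions were common, as they were among all tested genes. Some of the shares below lie near those of all tested genes. Of 14 Gq transducers, all tested, 10, 8 and 8 differed in the comparisons of ileum with duodenum, colon with duodenum and colon with ileum (71.4%, 57.1% and 57.1%, beside 33.8%, 55% and 49.2% of all tested genes). *Gna14*, an alpha subunit of the Gq family, rose from 0.244 ± 0.264 CPM in the duodenum to 2.16 ± 1.12 in the ileum and 43.4 ± 12.7 in the colon (colon against ileum, log2 4.30, SE 0.20, adjusted p = 2.14e-23). The calcium-release channel *Itpr2* rose from 23.2 to 51.6 and 72.3 CPM, and phospholipase C beta 1 (*Plcb1*) fell from 16.7 to 12.1 and 6.61 CPM (colon against duodenum, log2 1.64 and -1.32, adjusted p = 6.11e-12 and 2.87e-09). Of 7 alpha subunits of the Gi, Go and Gs type, 4, 5 and 6 differed (57.1%, 71.4% and 85.7%, beside the same shares of all tested genes). The alpha subunits of inhibitory receptors did not share a direction. *Gnai1* averaged 29.4, 41.7 and 8.97 CPM and *Gnao1* 253, 193 and 114 CPM (colon against ileum, log2 -2.20 and -0.74, adjusted p = 1.48e-14 and 5.7e-05), and *Gnai3* was also lower (-0.38, adjusted p = 1.55e-05). *Gnaz*, of the same class, was higher in the colon (0.95, adjusted p = 2.6e-06), and *Gnai2* did not pass the test (0.10, adjusted p = 0.138). Among receptor kinases, arrestins and RGS proteins 12 of 13 were tested and 8, 8 and 6 differed (66.7%, 66.7% and 50%, again beside 33.8%, 55% and 49.2%). *Rgs2*, which speeds the turn-off of Gq, averaged 287, 106 and 9.18 CPM, and *Rgs16* 1.67, 1.65 and 16.2 CPM (colon against ileum, log2 -3.53 and 3.32, adjusted p = 1.01e-20 and 9.61e-15). Over these lists and the related receptors, 37, 44 and 40 of 65 tested genes differed (56.9%, 67.7% and 61.5%, beside the same 33.8%, 55% and 49.2% of all tested genes).

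The comparison of surgical groups asked whether the EECs of VSG mice carry other levels of these receptors than those of sham mice. No member passed the adjusted threshold in any of 12 contrasts by edgeR (84 tests of the 7 tested members, lowest adjusted p = 0.249), and none by DESeq2 or by limma voom. At an unadjusted p under 0.05 there were 11, in 4 members. Over all tested genes, the contrasts averaged over regions called 0% for VSG against sham *ad libitum* (837 genes at an unadjusted p under 0.05), 0.245% for VSG against sham weight-matched (1500 unadjusted) and 0.0529% for the 2 sham groups (967 unadjusted). Within duodenum, ileum and colon, VSG against sham *ad libitum* called 0%, 0% and 0% (370, 932 and 950 genes unadjusted), VSG against sham weight-matched 0.225%, 0.0463% and 0.0595% (1318, 965 and 552 unadjusted), and the sham groups 0%, 0% and 0.0132% (990, 1188 and 553 unadjusted). The interaction of surgery and region called 0% of all genes (741 at an unadjusted p under 0.05) and no member (lowest unadjusted p = 0.0961, for *Chrm3*). The contrasts share groups, so their values are not independent.

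**Figure D4:**
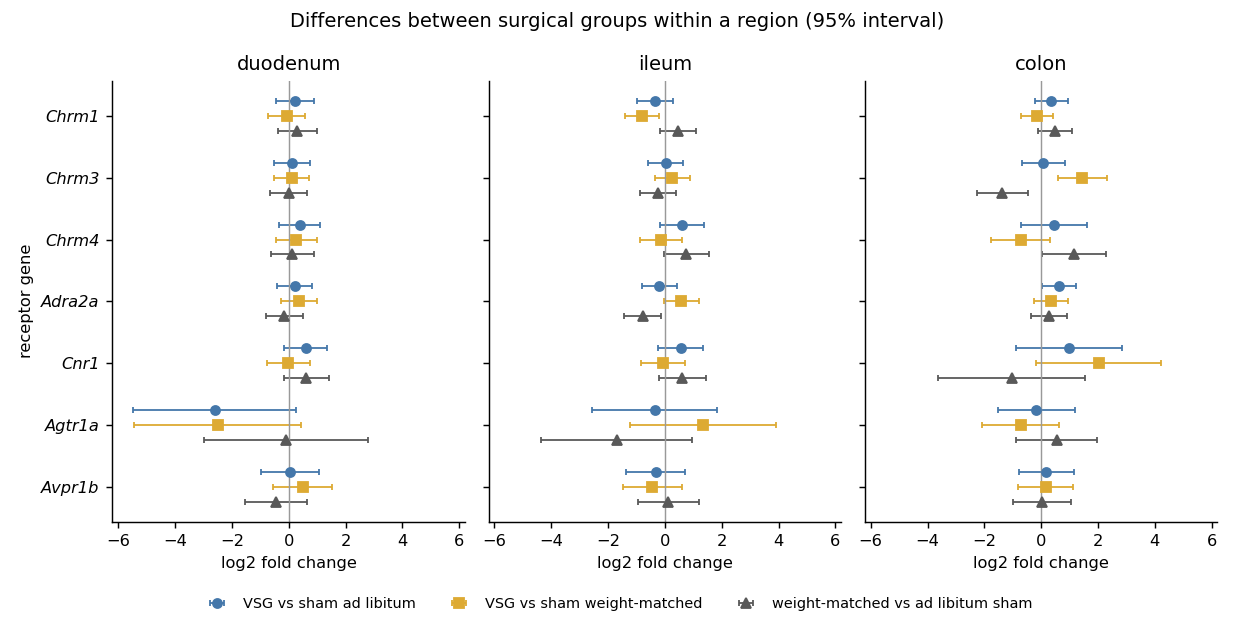
Log2 fold change (x axis) between surgical groups for the 7 tested receptors within each region, with 95% intervals, for VSG against sham *ad libitum*, VSG against sham weight-matched and the 2 sham groups. Most intervals include 0, those of *Agtr1a* outside the colon and of *Cnr1* in the colon are widest, and none of these differences passed the adjusted threshold.

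The lowest unadjusted p belonged to *Chrm3* in the colon, between VSG and sham weight-matched mice. Sham weight-matched colon libraries held 0.378, 1.49, 1.23, 1.53 and 0.432 CPM, which rest on 3 to 10 counts each. The 6 VSG libraries ranged from 1.54 to 3.66 CPM with a median of 2.81, and the sham *ad libitum* libraries held 1.10, 2.04, 2.95, 4.8 and 2.08 CPM. The VSG and sham weight-matched ranges met without overlapping (1.539 against 1.535 CPM), and the sham *ad libitum* range overlapped both. The log2 difference of VSG from sham weight-matched mice was 1.44 (95% interval 0.57 to 2.30, unadjusted p = 0.00164, adjusted p = 0.73), and sham weight-matched differed from sham *ad libitum* mice by -1.37 (-2.26 to -0.47, unadjusted p = 0.00363, adjusted p = 1). VSG and sham *ad libitum* mice were at 2.73 ± 0.78 (n = 6) and 2.59 ± 1.40 CPM (SD, n = 5), a log2 difference of 0.07. In the duodenum and ileum the difference of VSG from sham weight-matched mice was 0.11 and 0.26 with adjusted p = 0.985 and 0.969.

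**Figure D5:**
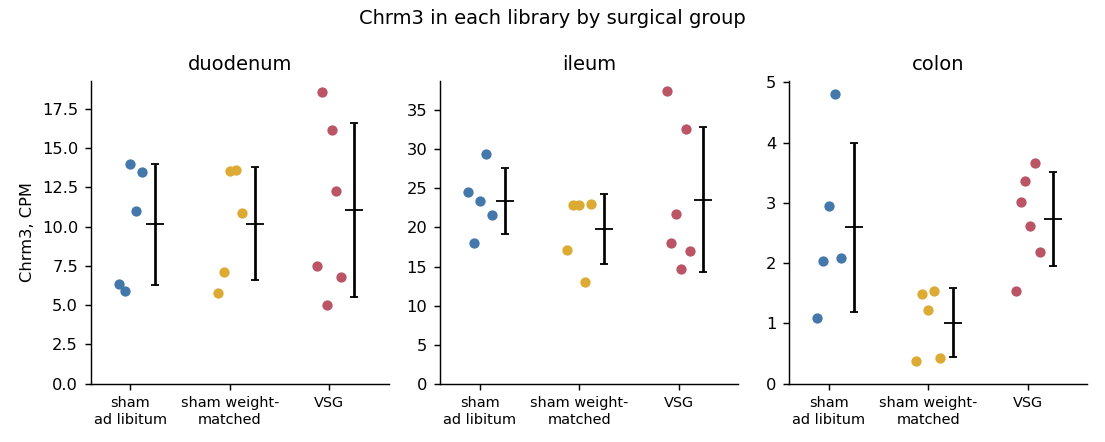
*Chrm3* (CPM, y axis from 0, scaled separately for each region) in each library of the duodenum, ileum and colon by surgical group, with mean and SD in black. In the colon the 5 sham weight-matched libraries lie at or below 1.53 CPM and the 6 VSG libraries at or above 1.54.

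Outside the colon *Agtr1a* rested on very few reads, with 0 counts in the duodenum of VSG mice, 3 under weight matching and 4 under *ad libitum* feeding, and 8, 2 and 7 in the ileum in this order. In the ileum its fitted log2 difference for weight-matched against *ad libitum* fed sham mice was -1.70 (95% interval -4.35 to 0.96, adjusted p = 0.795), and no fold is given against the duodenum of VSG mice. *Cnr1* in the colon held 31, 6 and 13 counts in the same order, and VSG minus sham weight-matched was 2.02 (-0.17 to 4.22, adjusted p = 1). *Chrm1* in the ileum averaged 4.20 ± 0.92 CPM in VSG (n = 6) and 7.33 ± 2.81 in sham weight-matched mice (SD, n = 5), a log2 difference of -0.81 (95% interval -1.42 to -0.19, adjusted p = 0.608), with 5.29 ± 1.86 CPM in sham *ad libitum* mice. *Adra2a* in the colon averaged 43.1 ± 10.9 CPM in VSG, 34.0 ± 14.2 in sham weight-matched and 27.9 ± 5.32 in sham *ad libitum* mice, and VSG minus sham *ad libitum* was 0.62 (0.01 to 1.24, adjusted p = 0.777). For *Chrm4* averaged over regions, sham weight-matched minus sham *ad libitum* was 0.68 (0.16 to 1.20, adjusted p = 0.687). *Cnr1* in the duodenum averaged 107 ± 29.3 CPM in VSG, 108 ± 52.9 in sham weight-matched and 70.3 ± 22.3 in sham *ad libitum* mice, with log2 differences of VSG of -0.02 and 0.60 (adjusted p = 1 for both).

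*Agtr1a* in the colon averaged 4.46 ± 3.74 CPM in VSG, 7.29 ± 6.13 in sham weight-matched and 5.02 ± 1.80 in sham *ad libitum* mice, and *Avpr1b* 12.8 ± 8.06, 11.5 ± 5.14 and 11.3 ± 4.83 CPM. Neither differed by the test (adjusted p of at least 0.956 for VSG against either sham group). *Avpr1a* in the colon averaged 0.596, 1.27 and 1.18 CPM in the same order, with 27, 41 and 44 counts. For *Chrm1*, *Chrm3*, *Chrm4*, *Adra2a*, *Cnr1* and *Avpr1b* in the duodenum and ileum, the 95% interval of a difference between surgical groups extended at most 1.09 to either side of the estimate on the log2 scale. Among the 5 related receptors tested, none passed the adjusted threshold in any surgery contrast by edgeR.

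Of the 65 tested genes of the related lists, edgeR called 3 for VSG against sham weight-matched averaged over regions, 0 for VSG against sham *ad libitum* (5 at an unadjusted p under 0.05, and 1 called by DESeq2) and 0 for the sham groups (7 unadjusted). Acetylcholinesterase was higher in VSG (log2 0.82, SE 0.18, adjusted p = 0.03). In the ileum it averaged 33.8 ± 16 CPM in VSG, 16.9 ± 6.22 in sham weight-matched and 16.9 ± 1.22 in sham *ad libitum* mice, and in the colon 12.6, 11.3 and 12.3 CPM. Without VSG mouse 18 its difference was 0.55 (adjusted p = 0.191). Leaving out VSG mouse 30 or sham weight-matched mouse 16, 27 or 29 also ended the call, with differences of 0.80, 0.76, 0.69 and 0.78 (adjusted p = 0.0591, 0.112, 0.0836 and 0.0828). So did voom, no filter on low counts and counts summed per mouse, with differences of 0.87, 0.82 and 0.98 (adjusted p = 0.114, 0.0927 and 0.432).

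Monoamine oxidase B (*Maob*), which degrades amines, was lower in VSG (log2 -0.59, SE 0.09, adjusted p = 0.000239) in the main fit, which has no term for the mouse. Every alternative run for this average kept the call. Among them, *Maob* had adjusted p = 0.00674 in voom with mouse as a random block and 0.0274 in edgeR with counts summed per mouse. In the ileum it averaged 22 ± 3.37 CPM in VSG, 40.2 ± 6.95 in sham weight-matched and 37.2 ± 8.99 in sham *ad libitum* mice (SD, n = 6, 5 and 5), and VSG against sham weight-matched was -0.88 (adjusted p = 0.0209), a call lost without VSG mouse 11, 22 or 28 or sham weight-matched mouse 16, 21 or 31 (differences of -0.90 to -0.82, adjusted p from 0.0508 to 0.13) and with only the libraries compared (-0.89, adjusted p = 0.0685). Against sham *ad libitum* mice the difference averaged over regions was -0.44 (adjusted p = 0.0947). *Abhd12*, a lipase of endocannabinoids and lysophospholipids, was lower in VSG than in sham weight-matched mice (log2 -0.44, SE 0.10, adjusted p = 0.0436). In the duodenum, where the difference was -0.91 (adjusted p = 0.0133), 1 sham weight-matched library stood at 123 CPM, and without mouse 27 the difference was -0.52 (adjusted p = 0.668). That call was also lost with the i5 index as covariate (-0.65, adjusted p = 0.113) and with only the libraries compared (-0.92, adjusted p = 0.747). Averaged over regions, the *Abhd12* call was lost without that mouse (-0.28, adjusted p = 0.172) or its duodenum library (-0.31, adjusted p = 0.0782), and without the ileum and colon libraries of mouse 12 (-0.44, adjusted p = 0.0539). It was also lost without VSG mouse 11, 18, 22, 28 or 30, sham *ad libitum* mouse 12, 13 or 19 or sham weight-matched mouse 21 (differences of -0.45 to -0.41, adjusted p from 0.0544 to 0.119), with voom (-0.41, adjusted p = 0.314) and with counts summed per mouse (-0.49, adjusted p = 0.52).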

How the data were processed

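Bulk RNA sequencing of sorted NeuroD1-positive cells gave 48 libraries, 9 groups of surgery and region. The authors aligned 50-base single reads with STAR 2.5.1 to GRCm38 and deposited 1 table of raw counts per gene, unnormalized. Whether counting used strand is not given in the sources used here. Symbols, coordinates and exon lengths came from GENCODE M21 (53360 of 53465 identifiers matched), and promoters from RefSeq (6 of 9 members matched). Tissue labels were used as given, although mouse 12's ileum and colon descriptions carry crossed codes.

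Counts were tested with edgeR 4.0.16 (R 4.3.3) by the quasi-likelihood F test, robust, with TMM scaling, filterByExpr (minimum count 10, 15126 genes) and 1 mean per group over all 48 libraries, and p-values were adjusted by Benjamini-Hochberg across the tested genes (threshold 0.05). The SE was taken as |log2 fold change| over the root of F. CPM are counts scaled to the TMM library size, and CPM per kb divides them by exon length. Within an i5 index, exact permutation tests covered either direction, with p as the smaller tail doubled (scipy 1.17.1). Steps were tested on simulated counts. Totals per library set the precision: a count of 0 over a region's 16 libraries allows 3 counts.

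The alternatives were DESeq2 size factors, DESeq2 1.42.0, no filter (40391 genes), at least 10 counts in every library of a group (12977 genes), limma 3.58.1 voom with mouse as a random block, mouse as a fixed replicate block, the i5 index as covariate, only the libraries compared, counts summed per mouse, and leaving out mouse 12's ileum and colon, mouse 27's duodenum, or each mouse in turn. Mouse numbers name the animal, so libraries of 1 number are paired across regions. In 46 such pairs the correlation of deviations from group means over 2000 genes had a median of 0.114, with 26 over 0.1. Surgical groups hold different mice. The main fit has no term for the mouse, so surgery contrasts averaged over regions treat the libraries of 1 mouse as independent. Each library is a separate animal or region of it, and no 2 libraries of a group agreed within counting noise (105 pairs, chi-square of at least 8.78 per gene).

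The members and gene lists were chosen with earlier results of these data known. Named were all members, the related receptors past the filter, from each list up to 4 genes of lowest p per direction and region comparison, and for each tested member the 3 genes of highest r, or of at least 0.6 once group means were removed. *Agtr1b* is named as the paralogue of *Agtr1a*. *Maob*, *Ache* and *Abhd12* between surgical groups, and related receptors under the filter, were named after their values were seen. A few genes that this rule would name are not reported here.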

Additional observations from a re-analysis of the deposited data

How the results depend on the processing

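Direction and call of the tested members held in all 3 region comparisons under DESeq2, DESeq2 size factors, both other filters, voom, the libraries compared alone (where *Agtr1a* did not pass the filter between ileum and duodenum) and the omission of mouse 12's ileum and colon or mouse 27's duodenum library. With mouse as a fixed replicate block the member calls were also unchanged (5, 7 and 7), with for example log2 -7.86 for *Cnr1* between colon and duodenum, and 41 and 42 related genes were called between colon and duodenum and colon and ileum. With the i5 index as covariate 2 members and 11 related genes (in place of 5 and 37) were called between ileum and duodenum, and 22 related genes (in place of 44) between colon and duodenum. The cause was not tested, and index and region are largely confounded. Without the share of all tested genes called with this covariate, the loss cannot be read as particular to these genes. Without 1 mouse, 5 to 6 members were called between ileum and duodenum, and 7 to 8 in each of the other region comparisons, the addition being *Agtr1a* in the first, and in the others 8 rather than 7 members passed the filter. Leaving out each library of the smaller region within an index, tried once the values were known, turned the sign of 4 differences that had not passed the test. *Avpr1b* between colon and ileum ranged from -0.95 to 0.54 (0.54 without mouse 30), and between ileum and duodenum *Adra2a* ranged from -0.047 (without mouse 12) to 0.42, *Adrb1* from -0.19 to 0.19 (0.19 without mouse 27) and *Agtr1a* from -0.10 to 0.23 (0.23 without mouse 32). No member was called in a surgery contrast under any alternative. For VSG against sham *ad libitum*, averaged over regions, 1 related gene was called by DESeq2, 1 without mouse 27's duodenum library, and 0 to 1 without 1 mouse. For VSG against sham weight-matched, 1 was called in place of 3 by voom and with counts summed per mouse, and 1 to 3 without 1 mouse.

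Low counts limit *Adrb1*, *Avpr1a*, *Agtr1a* outside the colon, and *Cnr1*, *Chrm3* and *Chrm4* in the colon, where fitted fold changes depend on few reads. Each surgical group holds 5 or 6 mice per region.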

Other observations

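No library stood apart from its group for any member by Dixon's ratio at the 95% level, in 55 sets of 5 or 6 libraries with a median count of at least 5. *Avpr1b* and *Agtr1a* deviated together within groups (r = 0.521 over 48 libraries), while *Chrm1* deviated little with *Chrm3* (r = 0.127) and *Chrm3* against *Chrm4* gave -0.123.

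Among receptors related to the members, *Adra1d* held 16, 39 and 42 counts and *Adra2c* 30, 64 and 71 counts from duodenum to colon, over 16 libraries each. *Adrb3* had 1, 6 and 0 counts. *Gpr18*, a receptor for lipid messengers, had 19, 13 and 12 counts. None of these passed the filter on low counts. Of 18 related receptors 13 did not pass it, with 1 to 165 counts each over all 48 libraries.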
